A study of Gallus gallus with 15 samples.

Results

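The enzymes that build triglyceride from glycerol 3-phosphate were followed as RNA, with and without dietary metformin, in hens kept to breed broilers, as meat chickens are called; all libraries are of their liver. The 10 genes were chosen by name from textbook biochemistry, with earlier results of these data already known. They encode the glycerol 3-phosphate acyltransferases GPAM, GPAT3 and GPAT4, the lysophosphatidate acyltransferases AGPAT2 and AGPAT3, and the lipins LPIN1 and LPIN2. The others encode the diacylglycerol acyltransferases DGAT1 and DGAT2, and the monoacylglycerol acyltransferase MOGAT1. Of the 10 genes, 9 were measured among 24154 gene rows, and all 9 passed the expression filter. DGAT1 was not analysed here.

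Triglyceride is made by adding fatty acyl groups from acyl-CoA to a glycerol backbone one after another. A glycerol 3-phosphate acyltransferase adds the first acyl group, a lysophosphatidate acyltransferase adds the next and yields phosphatidate, a lipin removes the phosphate to give diacylglycerol, and a diacylglycerol acyltransferase adds the last. MOGAT1 reaches diacylglycerol by another way, from monoacylglycerol. In birds the liver is the main site of fatty acid synthesis, and in a laying hen much of the triglyceride leaves it in lipoproteins that carry lipid to the yolk.

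Libraries came from whole liver of hens aged 65 weeks. The 5 control libraries were from hens without metformin, and the 10 metformin libraries were from hens fed the drug at 75 mg per kg of body weight over 40 weeks, from the age of 25 weeks. Metformin is widely used in humans against high blood glucose, and each treatment had 45 hens. The labels give no genotype or strain beyond broiler breeder, and they do not say whether each library was a separate hen or a pool. The p-values here thus set the treatment difference against variation between libraries, which may be technical rather than between hens. The question was which of the route's transcripts differed between the treatments.

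Controls held 21435678 to 26494240 reads in genes, and metformin libraries 8023809 to 41041301. By the share of reads lying in no gene, the libraries fell into 3 sets. The middle set holds all 5 controls (27.8% to 36.3%) and metformin 1, 3 and 4 (37.0% to 43.5%). The low set is metformin 2 and 5 (14.6% to 17.5%), and the high set is metformin 6 to 10 (51.5% to 55.1%). Outside the middle set there is no control, so there metformin and library set cannot be told apart. Each gene was therefore tested with edgeR in 2 fits, over all libraries and with the library set as a covariate. The latter is called set-adjusted, and its metformin term compares the controls with metformin 1, 3 and 4. Those metformin libraries had shares of 37.0% or more, and the controls 36.3% or less, so the ranges do not overlap. The set-adjusted term thus cannot separate the drug from what remains of this share inside the middle set. Adjusted p-values are over the 14432 genes tested.

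GPAM rose and MOGAT1 fell over all libraries, and the other 7 measured genes did not pass the threshold of 0.05. Thus 1 of 9 was called higher, where 12.5% of all tested genes were, and 1 of 9 lower, where 5.73% were. In either direction that is 2 of 9, beside 18.2%, so the count is close to the background and nothing is read from it. At an unadjusted p under 0.05 there were 3 of 9, with LPIN1 the additional gene, beside 39.2%. In 0 of the 9 were all 10 metformin libraries above all controls (0.651% of tested genes) or below them (1.05%). Their log2 fold changes had a median of 0.14, against 0.032 over all tested genes. Set-adjusted, edgeR called 0 of 9 in either direction, where 0.0277% of tested genes were called higher and 0.00693% lower (0.0346% together). That background is 4 genes higher and 1 lower, and it became 2 and 2 without normalization factors. At an unadjusted p under 0.05 the set-adjusted fit held 2 of the 9, GPAM and MOGAT1, beside 11.6% of all genes. Set-adjusted, DESeq2 and limma voom each called GPAM alone of the 9. Over all tested genes DESeq2 then called 172 higher and 89 lower, and limma voom 59 and 12, far more than edgeR. The set-adjusted median was -0.053 for the 9 genes and -0.029 for all. In the middle set fitted alone edgeR also called 0 of 9, beside 0% of tested genes higher and 0.00734% lower (0.00734% together), and 2 of 9 were at an unadjusted p under 0.05, beside 10.2%; DESeq2 and limma voom were not run on that subset.

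**Figure D1:**
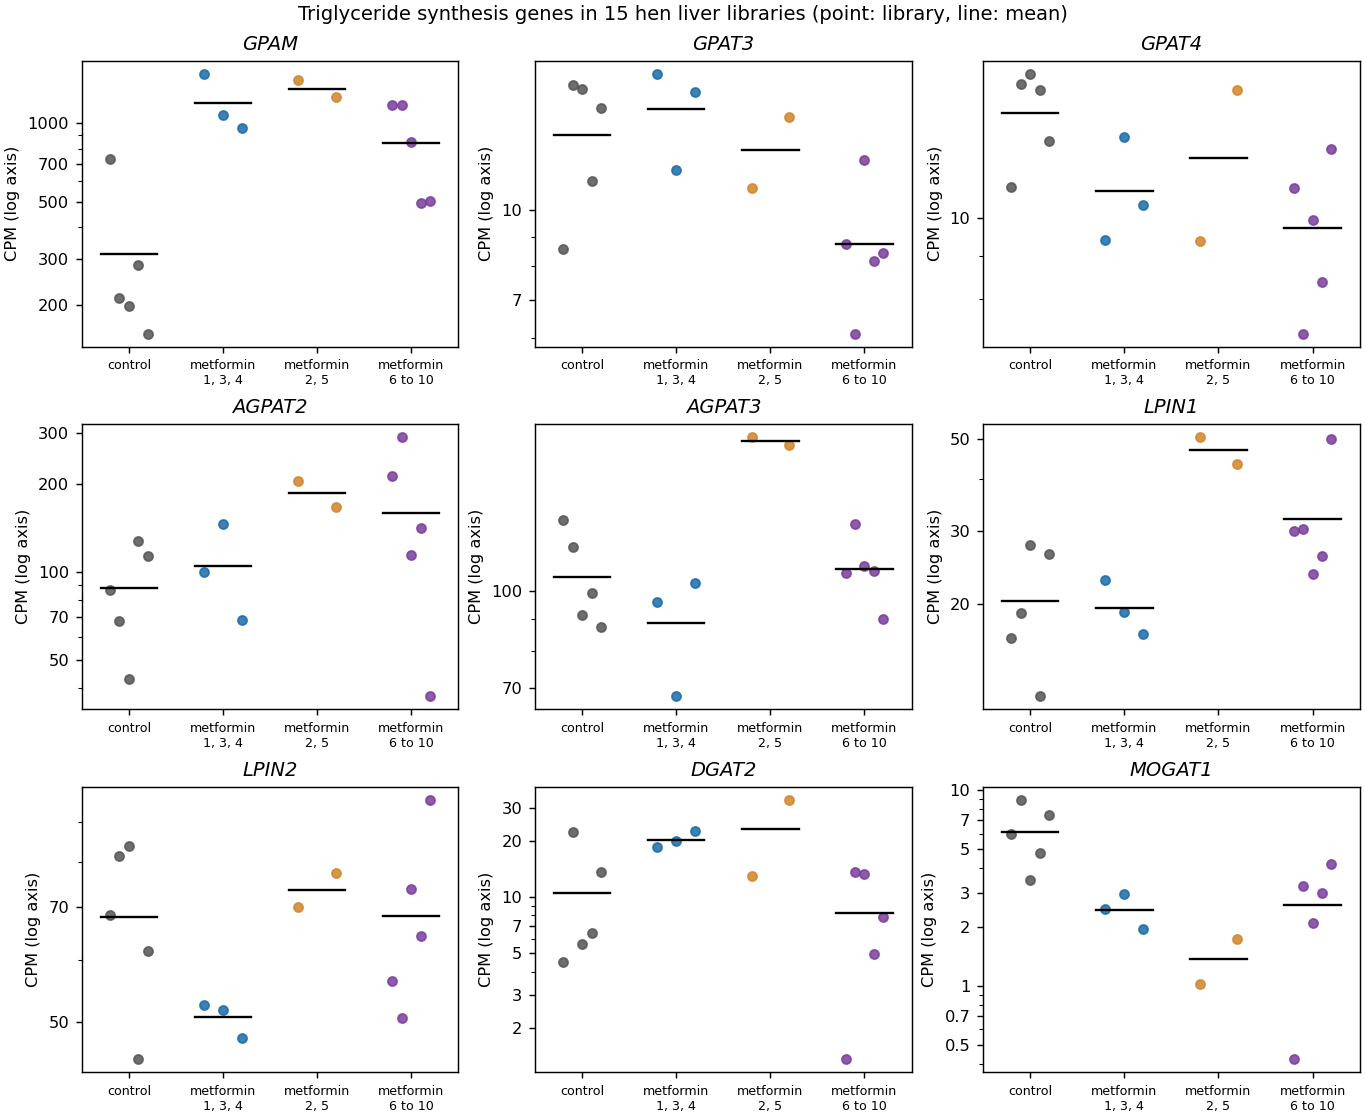
Normalised read counts (CPM, log axis with a different range in each panel) of the 9 measured genes in control libraries, metformin 1, 3 and 4 (middle set), metformin 2 and 5 (low set) and metformin 6 to 10 (high set). Each point is 1 library and each line the mean of its column; GPAM is higher in all 3 metformin columns, and MOGAT1 lower, with 1 control (GPAM, 726 CPM) and 1 metformin library (MOGAT1, 4.22 CPM) reaching into the other group.

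GPAM encodes the acyltransferase of the outer mitochondrial membrane that commits glycerol 3-phosphate to lipid. Its normalised count, in reads relative to the TMM-scaled library total (CPM), was 726, 212, 198, 284 and 155 in controls 1 to 5. In metformin libraries it ran from 492 to 1547 with a median of 1126. Control 1 stood above the other 4 controls and above metformin 9 (492 CPM) and 10 (505 CPM), while 8 of 10 metformin libraries lay above every control. The means were 315 ± 235 CPM (SD, n = 5) and 1050.4 ± 357 CPM (SD, n = 10), a log2 fold change of 1.74 ± 0.39 (SE), or 3.33-fold (adjusted p = 0.0231).

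Mean GPAM was above the mean of the 5 controls in the metformin libraries of each set. The controls are all of the middle set, so in the low and high sets metformin and library set cannot be told apart. Metformin 1, 3 and 4 had 1547, 1080 and 963 CPM, metformin 2 and 5 had 1462 and 1257 CPM, and metformin 6 to 10 had 1171, 1177, 850, 492 and 505 CPM. All 3 metformin libraries of the middle set were above every control, as held for 2.99% of tested genes. Set-adjusted, GPAM had a log2 fold change of 1.92 ± 0.43 (SE), which did not pass over all genes (p = 0.000375, adjusted p = 0.104).

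As with calls in the whole table, the call for GPAM depended on single control libraries. Its log2 fold change over all libraries stayed between 1.56 and 2.30 when each library was left out in turn, and the adjusted p then ran from 0.00840 to 0.0719. It missed the threshold without control 2 (1.62, adjusted p = 0.0676), control 3 (1.61, adjusted p = 0.0504), control 4 (1.70, adjusted p = 0.0638) and control 5 (1.56, adjusted p = 0.0719). Without control 2, 3, 4 or 5 the whole table had 2, 233, 16 or 0 genes called higher, against 1805 with all libraries. Set-adjusted, GPAM passed without control 1 (2.49, adjusted p = 0.00106), where 166 genes of the whole table were called higher and 35 lower. Without the high set, which leaves 5 metformin libraries, GPAM had 2.06 (adjusted p = 0.203), and 0 genes of the whole table were called.

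GPAT3 and GPAT4 encode the acyltransferases of the endoplasmic reticulum that catalyse the same first step. GPAT3 stood at 8.58, 16.5, 16.3, 11.2 and 15.1 CPM in controls 1 to 5 and at 6.11 to 17.3 CPM with metformin (median 11.3). The groups overlapped, with metformin 1 above every control and metformin 7, 9 and 10, all of the high set, below every control. Over all libraries GPAT3 had a log2 fold change of -0.24 ± 0.25 (SE, adjusted p = 0.468), and set-adjusted it had 0.15 ± 0.25 (adjusted p = 0.878), so the direction differed between the fits.

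GPAT4 was the steadiest of the 9 genes among controls, with a coefficient of variation of 12.6%. It measured 10.9, 14.5, 14.9, 14.2 and 12.4 CPM in controls and 7.26 to 14.2 CPM with metformin (median 10.2). In 7 of 10 metformin libraries it was below every control. The log2 fold change was -0.35 ± 0.17 (SE, adjusted p = 0.135) over all libraries and -0.31 ± 0.21 (adjusted p = 0.625) set-adjusted. Limma voom with quality weights called it lower over all libraries (-0.45, adjusted p = 0.0180). That fit called 4001 genes lower and 3323 higher, so little is read from the call.

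The lysophosphatidate acyltransferases AGPAT2 and AGPAT3 act next, on the product of the first step, and AGPAT2 is the enzyme whose loss causes generalised lipodystrophy in humans. AGPAT2 had 86.9, 67.8, 42.7, 128 and 113 CPM in controls, and 37.4 to 292 CPM with metformin (median 144). Its metformin libraries spread 7.80-fold, with metformin 10 below all controls and 6 of 10 above all of them. The log2 fold change was 0.76 ± 0.39 (SE, adjusted p = 0.160) over all libraries and 0.26 ± 0.47 (adjusted p = 0.892) set-adjusted.

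AGPAT3 had 130, 117, 91.4, 99.1 and 87.6 CPM in controls, and 67.8 to 176 CPM with metformin (median 107). The 2 libraries of the low set, at 176 and 171 CPM, were the only metformin libraries above every control. AGPAT3 had a log2 fold change of 0.14 ± 0.21 (SE, adjusted p = 0.643) over all libraries and -0.24 ± 0.19 (adjusted p = 0.674) set-adjusted.

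Lipins are the phosphatidate phosphatases that make diacylglycerol, and lipin 1 also acts in the nucleus as a transcriptional coactivator in mouse liver. LPIN1 had 16.5, 19.0, 27.7, 12.0 and 26.4 CPM in controls, and 16.9 to 50.5 CPM with metformin (median 28.0). Metformin 1, 3 and 4 (22.8, 19.1 and 16.9 CPM) lay inside the range of the controls, while metformin 2 and 5 (50.5 and 43.4 CPM) and metformin 6, 7 and 10 (29.9, 30.2 and 49.96 CPM) lay above it. The log2 fold change was 0.62 ± 0.29 (SE, adjusted p = 0.123) over all libraries and -0.053 ± 0.27 (adjusted p = 0.972) set-adjusted. Limma voom with quality weights called LPIN1 higher over all libraries (0.56, adjusted p = 0.0396), as it did 3323 genes, with 4001 lower.

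LPIN2, the other lipin measured, had 68.4, 81.4, 83.7, 44.8 and 61.5 CPM in controls, and 47.7 to 96.1 CPM with metformin (median 60.4). Metformin 1, 3 and 4 clustered at 52.6, 51.8 and 47.7 CPM, below 4 of the 5 controls and above control 4. The log2 fold change was -0.085 ± 0.19 (SE, adjusted p = 0.762) over all libraries and -0.42 ± 0.22 (adjusted p = 0.495) set-adjusted.

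DGAT2 and MOGAT1 are members of one protein family, in which DGAT2 completes triglyceride and MOGAT1 acylates monoacylglycerol. DGAT2 had 4.51, 22.4, 5.64, 6.43 and 13.7 CPM in controls 1 to 5, and 1.36 to 33.5 CPM with metformin (median 13.5). The spread within each group exceeded the difference between them, with coefficients of variation of 71.7% and 62.6%. Metformin 1, 3 and 4 were close together at 18.5, 20.01 and 22.7 CPM, and the lowest value of all was 1.36 CPM in metformin 6, from 16 reads. DGAT2 had a log2 fold change of 0.50 ± 0.54 (SE, adjusted p = 0.497) over all libraries and 0.96 ± 0.56 (adjusted p = 0.549) set-adjusted.

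MOGAT1 fell with metformin. It had 5.94, 8.95, 3.49, 4.75 and 7.47 CPM in controls 1 to 5, and 0.424 to 4.22 CPM with metformin (median 2.29). In 9 of 10 metformin libraries it was below every control, the exception being metformin 10 at 4.22 CPM, which lay above control 3. The means were 6.12 ± 2.16 CPM (SD, n = 5) and 2.31 ± 1.11 CPM (SD, n = 10), a log2 fold change of -1.42 ± 0.39 (SE), or 2.67-fold lower (adjusted p = 0.0302).

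Mean MOGAT1 was below the mean of the 5 controls in the metformin libraries of each set. As for GPAM, only the middle set holds controls, so the low and high sets do not repeat the comparison. Metformin 1, 3 and 4 had 2.47, 2.94 and 1.95 CPM, metformin 2 and 5 had 1.02 and 1.74 CPM, and metformin 6 to 10 had 0.424, 3.23, 2.11, 2.97 and 4.22 CPM. The 3 metformin libraries of the middle set were below all controls, as were 3.56% of tested genes. Set-adjusted the log2 fold change was -1.32 ± 0.51 (SE, p = 0.0194, adjusted p = 0.318), which did not pass.

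MOGAT1 rests on few reads, 78 to 185 per control and 5 to 65 per metformin library. The 5 reads of metformin 6 carry an exact Poisson 95% interval of 1.62 to 11.7 reads, which covers counting error only. Its log2 fold change ranged from -1.57 to -1.24 when each library was left out in turn, and it missed the threshold without control 1 (-1.43, adjusted p = 0.0554), control 2 (-1.24, adjusted p = 0.0825), control 3 (-1.57, adjusted p = 0.0504), control 4 (-1.50, adjusted p = 0.0693) or control 5 (-1.33, adjusted p = 0.0771). The whole table then had 336, 4, 182, 39 or 0 genes called lower without control 1, 2, 3, 4 or 5, against 827 with all libraries. Without the high set MOGAT1 had -1.56 (adjusted p = 0.203), and 0 genes of the whole table were called.

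**Figure D2:**
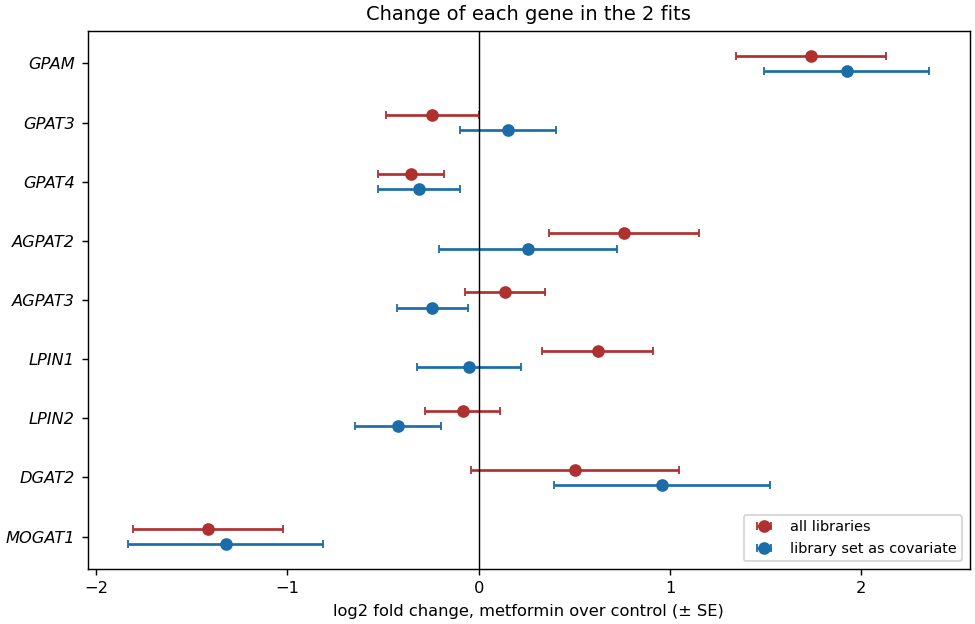
Log2 fold change of metformin over control for each measured gene (points) with its standard error (bars), from the edgeR fit over all libraries and from the fit with the library set as a covariate. GPAM (1.74 and 1.92) and MOGAT1 (-1.42 and -1.32) have similar values in both fits, but passed the threshold in the first alone (adjusted p = 0.104 and 0.318 in the other), while LPIN1 moves from 0.62 to -0.053.

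Ratios of reads within a library do not depend on how libraries are scaled. They are not corrected for transcript length, so only their differences between libraries can be read. The reads of GPAM were 5.66 to 37.3 times those of GPAT3 and GPAT4 together in controls, with control 1 the highest and the other 4 at 11.2 or less, and 24.5 to 87.6 times with metformin. On the log2 scale the mean ratio was 3.33 ± 1.12 (SD, n = 5) in controls and 5.53 ± 0.57 (SD, n = 10) with metformin, a difference of 2.20 (exact two-sided permutation test, p = 0.00266, adjusted over 3 ratios p = 0.00799). In 7 of 10 metformin libraries this ratio was above that of every control. The difference was 2.18 within the middle set (exact permutation p = 0.0714), where 3 against 5 libraries allow no p below 0.0357.

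The ratio of LPIN1 to LPIN2 was also higher with metformin. LPIN1 had 0.242, 0.234, 0.331, 0.268 and 0.429 reads per LPIN2 read in controls 1 to 5, and 0.320 to 0.721 with metformin. The groups overlapped, with 6 of 10 metformin libraries above all controls. The log2 means were -1.77 ± 0.37 (SD, n = 5) and -1.10 ± 0.38 (SD, n = 10), a difference of 0.67 (exact permutation p = 0.00799, adjusted p = 0.0120). Within the middle set the difference was 0.39 (exact permutation p = 0.143), where LPIN1 had a log2 fold change of -0.031 and LPIN2 -0.40. The permutation tests over all libraries shuffle across library sets, and the low and high sets hold no control. Those tests cannot tell metformin from library set. For AGPAT2 to AGPAT3 the log2 difference was 0.56 and did not pass (exact permutation p = 0.188, adjusted p = 0.188), with 4 of 10 metformin libraries above all controls.

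**Figure D3:**
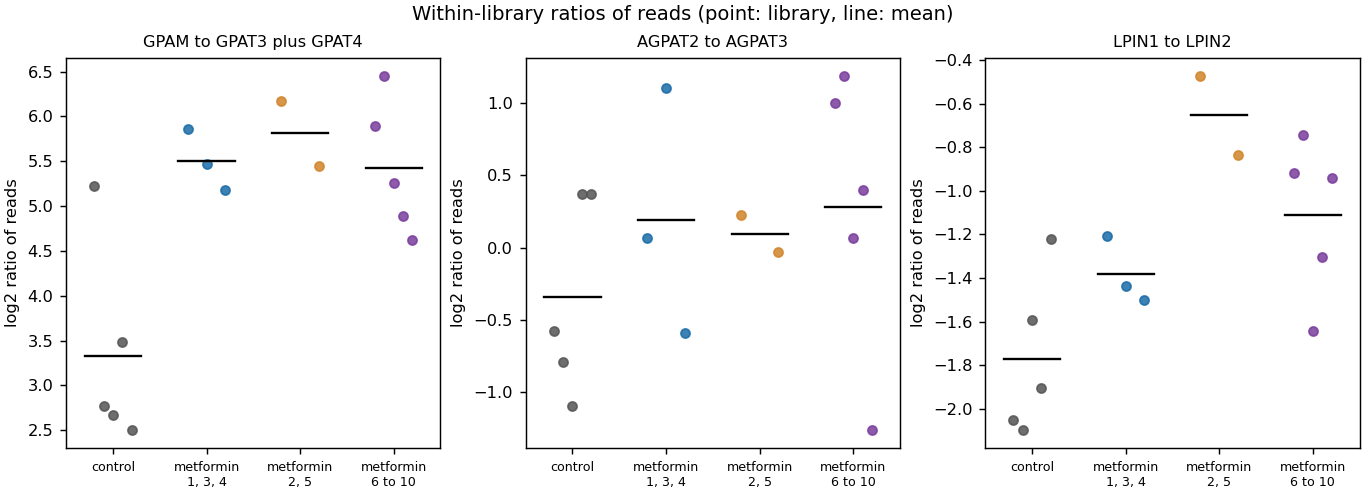
Log2 ratio of reads within each library for GPAM to GPAT3 plus GPAT4, AGPAT2 to AGPAT3 and LPIN1 to LPIN2, in controls and in the 3 sets of metformin libraries (point, library; line, mean of the column). For GPAM 4 of the 5 controls lie below all metformin libraries and control 1 among them, and for LPIN1 to LPIN2 metformin 2 and 5 are highest, on average.

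The library sets themselves differed in some of these genes. In a test of the set terms with metformin in the model, 3 of the 9 passed, beside 52.4% of all tested genes. AGPAT3 (adjusted p = 0.00501) and LPIN1 (adjusted p = 0.0137) were highest in the low set, where the set terms against the middle set were 0.97 and 1.26 on the log2 scale. GPAT3 (adjusted p = 0.0404) was lowest in the high set, at -0.78. GPAM had set terms of 0.18 in the low set and -0.51 in the high set (adjusted p = 0.392), and MOGAT1 had -0.82 and 0.077 (adjusted p = 0.397). Depth moved with the sets too, since gene reads were 33574543 to 41041301 in the low set and 8023809 to 11858541 in the high set, so set, depth and share in no gene cannot be told apart here. With the share in no gene as a covariate over all libraries, GPAM had 1.80 (adjusted p = 0.0197) and MOGAT1 -1.60 (adjusted p = 0.0232). That fit called 1530 genes higher and 938 lower. Its covariate is 1 linear term, which cannot take up set differences like those of LPIN1 (1.26 in the low set, 0.71 in the high). It therefore cannot separate metformin from library set.

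Around these steps, 90 other genes of the route were listed, of which 72 were tested. Over all libraries edgeR called 11 higher and 4 lower, where 12.5% and 5.73% of all tested genes were. Those shares, and 39.2% at an unadjusted p under 0.05, are also the background for edgeR's counts in each list below. Nothing is read from the counts. Set-adjusted, edgeR called 0 of the 72, with 11 at an unadjusted p under 0.05, beside 11.6% of all tested genes. In the set-adjusted fit DESeq2 called 4 and limma voom 1, all higher. Over all tested genes that fit had 172 higher and 89 lower with DESeq2, and 59 and 12 with limma voom. Over all libraries DESeq2 called 3034 genes higher and 1253 lower, and limma voom 3323 and 4001. These are the backgrounds for the counts by those tools in the lists below. Of the 72, DESeq2 called 21 higher and 5 lower over all libraries, and limma voom 24 and 16. Calls over all libraries again rested on single controls, since without control 1, 2, 3, 4 or 5 the whole table had 540, 2, 233, 16 or 0 genes higher and 336, 4, 182, 39 or 0 lower. Among 10 tested acyl-CoA synthetases and fatty acid transport proteins, which activate fatty acids for acylation, 4 rose (ACSL5, ACSBG1, ACSL3 and ACSBG2) and 1 fell. Their medians were 0.63 over all libraries and 0.47 set-adjusted on the log2 scale. Over all libraries DESeq2 called 5 higher and 1 lower, and limma voom 4 and 2. Set-adjusted, DESeq2 called 1 of the 10 higher and limma voom 0. ACSL5 went from 184 ± 62.3 to 446 ± 172 CPM (log2 fold change 1.28, adjusted p = 0.0259) and exceeded every control in 9 of the 10 metformin libraries. Its set-adjusted value was 1.11 (adjusted p = 0.174). ACSBG1 rose by 3.32, but had 0.64 set-adjusted (adjusted p = 0.487). SLC27A1, a fatty acid transport protein with acyl-CoA synthetase activity, fell (log2 fold change -0.96), with a set-adjusted value of -0.29 (adjusted p = 0.620).

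Of 4 tested genes that make or consume glycerol 3-phosphate 1 rose, GPD1L, from 0.231 ± 0.0965 to 2.94 ± 2.49 CPM (log2 fold change 3.65, adjusted p = 0.0296). Its set-adjusted value was 0.79 (adjusted p = 0.790). Over all libraries DESeq2 called 1 of the 4 higher, and limma voom 2. A list of other acyltransferases of the route had 9 tested genes, among them TMEM86A (2.38, and -1.20 set-adjusted), which is not an acyltransferase. Of the 9 edgeR called 0 in either direction, with 3 at an unadjusted p under 0.05. DESeq2 called 3 higher, and limma voom 3 higher and 1 lower. Their median was 0.40 over all libraries and -0.32 set-adjusted. Among 7 other phosphatidate phosphatases and lipin regulators 1 fell, PLPP5 (-1.15, adjusted p = 0.0475, and -0.39 set-adjusted). Over all libraries DESeq2 called 1 of them higher and 2 lower, and limma voom 2 and 3.

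The branch from phosphatidate and diacylglycerol to phospholipid had 17 tested genes, of which 3 rose and 2 fell. Their medians were 0.038 over all libraries and -0.084 set-adjusted. Over all libraries DESeq2 called 3 higher and 2 lower, and limma voom 4 and 4. The additional riser beside those described was PTDSS1 (1.36, and -0.041 set-adjusted), named, like ACSBG2, after its values were seen. PTDSS2, a phosphatidylserine synthase, rose by 1.83 and ETNK1, an ethanolamine kinase, by 0.64, with 0.22 and 0.36 set-adjusted. CEPT1, which turns diacylglycerol into phosphatidylcholine and phosphatidylethanolamine, fell from 184 ± 37.8 to 97.0 ± 31.3 CPM (log2 fold change -0.93, adjusted p = 0.0259) and was under the lowest control in 9 of the 10 metformin libraries, with -0.74 set-adjusted (adjusted p = 0.344). PGS1, a step toward cardiolipin, fell too (-0.59, and -0.28 set-adjusted). Of 7 diacylglycerol kinases, which return diacylglycerol to phosphatidate, edgeR called 1 higher, DGKD (2.23, and 0.12 set-adjusted), beside medians of 0.72 and 0.028. Over all libraries DESeq2 called 4 of the 7 higher, and limma voom 4 higher and 3 lower.

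Among the genes that assemble lipid droplets 1 was tested, ACSL3, which is also an acyl-CoA synthetase, and it rose by 0.71 (adjusted p = 0.0335, and 0.37 set-adjusted). Of 18 regulators 2 rose, with medians of 0.12 over all libraries and 0.17 set-adjusted. Over all libraries DESeq2 called 4 of them higher, and limma voom 5 higher and 3 lower. Set-adjusted, DESeq2 called 3 of the 18 higher and limma voom 1. By edgeR 4 were then at an unadjusted p under 0.05, beside 11.6% of all tested genes. THRB, a thyroid hormone receptor, rose by 1.09 (adjusted p = 0.0218), against 0.62 set-adjusted. SREBF2, a sterol-regulated transcription factor, rose from 179 ± 55.1 to 298 ± 63.1 CPM (log2 fold change 0.74, adjusted p = 0.0376). Its set-adjusted value was 0.92 (adjusted p = 0.147). SREBF1, chosen after its values were seen, had 0.64 (adjusted p = 0.0550) and 1.01 set-adjusted (adjusted p = 0.104). MLXIPL, of the same list, went the other way over all libraries (-0.82, adjusted p = 0.175). Set-adjusted it had 0.21 (adjusted p = 0.820). The part of any regulator in the change of GPAM was not tested.

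**Figure D4:**
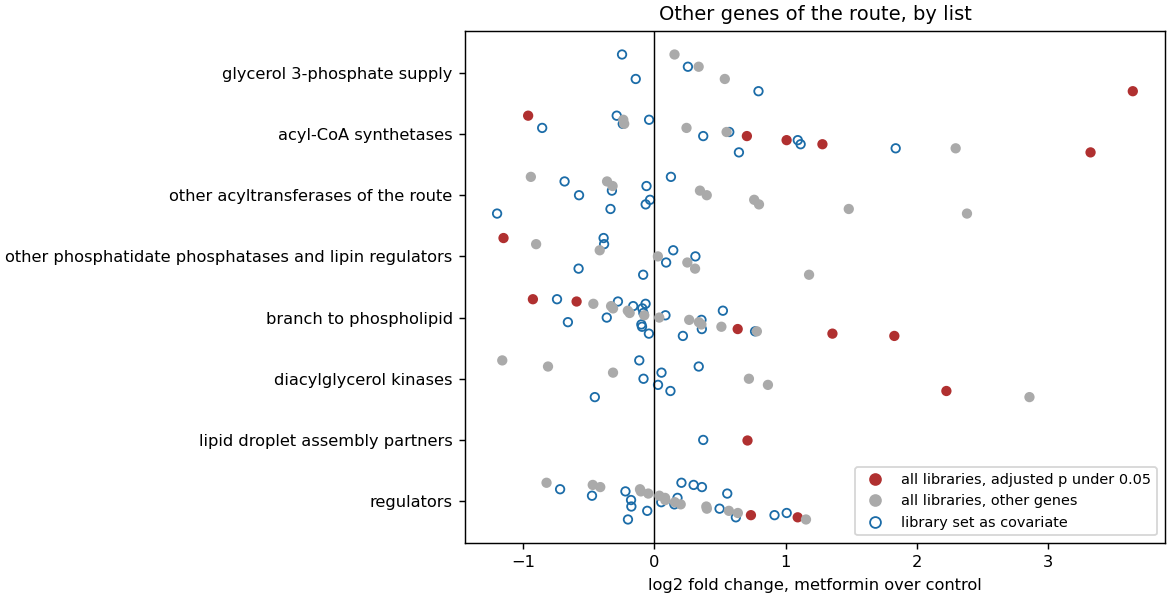
Log2 fold change of metformin over control for the other tested genes of the route, 1 row of points per list, with filled points from the fit over all libraries (red where the adjusted p was under 0.05) and open points from the fit with the library set as a covariate. Red points lie on both sides of 0, and the largest values, GPD1L (3.65) and ACSBG1 (3.32), have open points at 0.79 and 0.64.

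Cell type markers were read in the same libraries. Hepatocyte markers summed to 73000 to 96900 CPM in controls and 39800 to 143000 CPM with metformin. Of 12 tested 1 rose and 1 fell. Their medians were 0.24 over all libraries and -0.47 set-adjusted, where 2 of the 12 were above 0. Mean ALB was 35713 ± 7552 CPM (controls) and 40372 ± 17134 CPM (metformin), with -0.80 set-adjusted (adjusted p = 0.473). RBP4 had 5.38 over all libraries, from at most 19 reads per library, and -1.29 set-adjusted (adjusted p = 0.794), and AMBP had -0.71 and -0.77 (adjusted p = 0.299). Of 6 adipocyte markers 0 rose and 2 fell, PLIN1 (-1.43, and -0.71 set-adjusted, adjusted p = 0.429) and CIDEC (-1.45, and -0.71 set-adjusted, adjusted p = 0.201), both proteins of lipid droplets. The summed level of the 6 was 130 to 217 CPM in controls and 37.0 to 144 CPM with metformin. Most of that sum was PLIN1 and CIDEC, with control means of 64.6 and 118 CPM. ADIPOQ, made by fat cells, stood at 2.01 ± 0.877 and 2.21 ± 1.05 CPM. EdgeR did not call FABP4 (-0.29), LPL (1.21) or PCK1 (0.060) over all libraries, with control means of 1.58, 0.717 and 1.21 CPM. Of 6 leukocyte, 5 endothelial, 2 skeletal muscle and 3 erythroid markers edgeR called 0, with 3, 0, 0 and 2 at an unadjusted p under 0.05, while DESeq2 called 2 leukocyte markers higher, 1 leukocyte marker lower and 1 erythroid marker lower. Limma voom called 3 leukocyte markers higher and 1 lower, 3 endothelial markers lower and 1 muscle marker lower. Of 4 bile duct markers 1 fell, KRT7 (-0.84, and -0.56 set-adjusted), while SOX9 had 1.64 and did not pass (adjusted p = 0.0618). Of 6 fibroblast and stellate markers 1 rose, DCN (1.87, and -0.037 set-adjusted), in a list whose median was -0.18 over all libraries and -0.16 set-adjusted. These genes were named after their values were seen. Over all libraries DESeq2 called 3 hepatocyte markers higher and 2 lower, and 2 adipocyte markers lower. It also called 1 bile duct marker higher and 2 lower, and 1 fibroblast marker higher. Limma voom called 2 hepatocyte markers higher and 2 lower, and 3 adipocyte markers lower, beside 1 bile duct marker higher and 3 lower and 1 fibroblast marker higher. Set-adjusted, edgeR called 0 markers of any list. At an unadjusted p under 0.05 that fit held 2 hepatocyte, 2 adipocyte, 2 endothelial, 1 bile duct and 1 fibroblast marker. The share of all tested genes was 11.6%, and nothing is read from these counts. Set-adjusted, DESeq2 called 1 hepatocyte marker higher and limma voom 0. The summed levels of the bile duct and the fibroblast lists were 55.6 to 86.5 and 109 to 271 CPM in controls, and 37.9 to 61.2 and 118 to 465 CPM with metformin. No listed marker with a row was at 0 in every library, and the part of cell makeup in the changes of GPAM and MOGAT1 was not tested. In whole liver, fewer cells of a type and less RNA per cell cannot be told apart.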

How the data were processed

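The authors deposited 1 table of read counts, 1 row a gene, not normalised. The submitters' processing notes name STAR 2.7.11b, HTSeq 0.12.3, Trim Galore 0.6.4 and FastQC 0.12.0, and the builds GRCg6a and galGal6. Per the labels' protocols, libraries came from 200 ng of RNA with a stranded mRNA kit. The sources used here do not give HTSeq's strand setting. RefSeq's GRCg7b table was used for names and for gene positions. Of the 9 measured genes, 3 overlap another gene there, and 0 of those overlapping genes has a row of counts under its symbol in that table. The builds named for the counts differ from it, so this cannot show whether reads were shared with an overlapping gene.

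Neither library sizes nor tests include the table's last 5 rows, which name no gene. The share lying in no gene was 14.6% to 55.1% by library. Library sets were split at gaps of over 5 percentage points in that share. Every pair of libraries differed by more than sampling noise (2000 top genes, smallest chi-square per degree of freedom 90.6).

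Tests used edgeR 4.0.16 in R 4.3.3 (quasi-likelihood, TMM, default expression filter, Benjamini-Hochberg over all tested genes, threshold 0.05). CPM are the deposited counts relative to TMM-scaled library totals. Standard errors (SE) of edgeR's log2 fold changes were derived from its tests. Each is the absolute log2 fold change divided by the square root of the F statistic, and edgeR itself does not report it. Ratios used a pseudocount of 0.5 read and an exact two-sided permutation test, and that of DGAT2 to DGAT1 was not computed. Alternatives were DESeq2 1.42.0, limma 3.58.1 voom, other factors and filters, a robust fit, the replicate number as a block, the share in no gene as a covariate, subsets of library sets, and each library left out. The subsets without the low and without the high set were chosen after seeing the data. The calculations were tested on simulated counts.

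The members and lists were chosen with earlier results of these data known. All 9 measured genes are named, with the 2 called genes of smallest p per direction from each pathway list, and the 5 genes most correlated with each called member.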

Additional observations from a re-analysis of the deposited data

Results flagged for a closer look

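GPAM in control 1 stood apart from the other controls. It had 726 CPM, and the nearest control had 284 CPM, a gap of 0.774 of the range of the 5 controls, beyond Dixon's 95% limit. Of 24 such checks, over the 9 genes and 3 ratios in each group, this was the 1 flagged, and chance flags about 1 in 20. The checks used CPM for genes and log2 values for ratios, and the GPAM ratio of control 1 was not flagged. Without control 1, the log2 fold change of GPAM was 2.30 (adjusted p = 0.00840) with all other libraries. In the set-adjusted fit it was 2.49 (adjusted p = 0.00106), where 166 genes of the whole table were called higher and 35 lower. Control 1 was singled out by its high GPAM value, so larger fold changes and smaller p-values without it lend no support.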

How the results depend on the processing

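GPAM stayed higher and MOGAT1 lower under every alternative run, in both fits. Counts of called genes were less stable. The fit over all libraries called 1805 genes higher and 827 lower, and there were 3034 and 1253 with DESeq2, 3323 and 4001 with limma voom, 0 and 1 in the middle set alone, 0 and 0 without the high set, and 366 lower without the low set. With each library left out they ran from 0 to 3011 and from 0 to 2293. Set-adjusted, 4 were higher and 1 lower, with 172 and 89 by DESeq2, 59 and 12 by limma voom, 2 and 2 without factors, 19 and 6 without a filter, and 0 to 166 and 0 to 35 with each library left out.

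Of the 9 genes, limma voom called 2 higher and 2 lower over all libraries, beside 3323 and 4001 of all 14432 tested. EdgeR called 0 and 0 of the 9 in the middle set alone or without the high set. With each library left out, 0 to 1 were called in each direction. Set-adjusted, 1 was higher with DESeq2 and 1 with limma voom, and 0 to 1 with each library left out. Within the middle set the log2 differences of the ratios were 2.18 for GPAM and 0.39 for LPIN1 to LPIN2, with an adjusted p = 0.214 for each by exact permutation.

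Directions turned for genes that edgeR did not call, of which limma voom had called LPIN1 higher over all libraries. AGPAT3 had -0.22 in the middle set alone and -0.041 without the low set, GPAT3 had 0.17 in the middle set alone and 0.12 without the high set, and LPIN1 had -0.031 in the middle set alone. LPIN2 had 0.11 without factors, a scaling that moved the median of all genes from 0.032 to 0.20. With each library left out, set-adjusted AGPAT2 ran from -0.062 to 0.49 and LPIN1 from -0.20 to 0.083. The cause was not tested.

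With the replicate block, edgeR called 0 and 0 genes over all libraries (1704 at an unadjusted p under 0.05, 3 of them among the 9) and 0 and 0 set-adjusted (1354, with 2 of the 9). GPAT3 then had 0.077 over all libraries and LPIN1 0.14 set-adjusted. Metformin 6 to 10 have no control of the same number, so in these block fits they do not inform the metformin term. Few libraries remain for that term, so nothing is read from the absence of calls. Deviations of libraries with the same number correlated at -0.077 to 0.0636, and 1 of 5 controls correlated best with its own number. No pairing by number was seen. Deviations of the metformin libraries also hold the differences among library sets, so this check cannot exclude a pairing. Depth limits MOGAT1 most, at 5 reads in metformin 6.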

Other observations

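Of the 9 genes, DGAT2 and MOGAT1 are of one family, and their reads within a library were compared after their values were seen. DGAT2 had 0.758, 2.51, 1.62, 1.35 and 1.84 reads per MOGAT1 read in controls 1 to 5. With metformin there were 7.51, 12.8, 6.81, 11.7 and 19.2 reads in metformin 1 to 5, and 3.20, 4.21, 6.36, 1.68 and 1.87 reads in metformin 6 to 10. Metformin 1 to 8 lay above every control, and metformin 9 and 10 lay within the control range. The value of metformin 6 comes from 16 DGAT2 and 5 MOGAT1 reads, so its place above the controls is uncertain. Metformin 6 to 10 are the high set, and neither the low nor the high set holds a control. There metformin and library set cannot be told apart.

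Over the 8 libraries of the middle set, which hold both treatments, the genes whose log2 CPM ran most like that of GPAM were ARID3A (Pearson r = 0.984), ACSL5 (r = 0.977), CREG2 (r = 0.976), RNF44 (r = 0.974) and KPNB1 (r = 0.970). Set-adjusted log2 fold changes of these 5 were 1.82, 1.11, 0.96, 1.2 and 0.97. For MOGAT1 the nearest were G6PC (r = 0.963), NHLRC3 (r = 0.943), HIST1H2B5 (r = 0.932), DRAM2 (r = 0.930) and ZBTB49 (r = 0.916), with set-adjusted values of -1.44, -0.49, -1.31, -0.35 and -0.47. G6PC encodes the glucose-6-phosphatase that lets the liver release glucose. All these points share libraries and scaling, and the genes were the closest of all those tested with a symbol, so high values are a description.

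A separate row named AGPAT9L, with 19 to 182 reads per library, was not counted with GPAT3, whose older symbols include AGPAT9.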
